A study of Mus musculus with 8 samples.

Results

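Aquaporins and the enzymes that take glycerol into glucose were followed in the liver of newborn mice as a set of 10 genes: Aqp1, Aqp3, Aqp4, Aqp7, Aqp8, Aqp9, Aqp11, Gyk, Gpd1 and Gpd2. They were chosen by gene name in the array files, with results of the same comparison already known, so their levels and differences are given as a description and not as independent evidence. All 13 probes that carry these names were well above background on all 8 arrays, out of 55681 non-control probes, and all 10 genes were among the 23526 genes tested. The knockout group was 4 livers of C57BL/6J mice that lack the miR-379/miR-410 cluster of microRNAs on the maternally inherited chromosome, and the wild-type group was 4 livers of littermates on the same background. The cluster belongs to an imprinted domain in which the microRNAs are made from the maternal copy, and the deletion is carried by every cell of the body. Both groups were taken by caesarean at E19.5, kept warm, and killed 4 h after it. Each RNA sample came from a fragment of the large liver lobe and was hybridised to 1 single-colour Agilent array.

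Aquaporins are membrane channels for water, and a subgroup called aquaglyceroporins (here Aqp3, Aqp7 and Aqp9) also lets glycerol through. Glycerol released from stored fat enters hepatocytes mainly through Aqp9, is phosphorylated by glycerol kinase (Gyk), and is oxidised to dihydroxyacetone phosphate by the glycerol 3-phosphate dehydrogenases of the cytosol (Gpd1) and of the mitochondrion (Gpd2). From there it can be built up to glucose, which the newborn liver must supply once the placenta is gone, or it can stay as glycerol 3-phosphate, the backbone of triglyceride.

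Levels below are log2 signals relative to the 75th percentile of the array, and differences are knockout minus wild-type on the same log2 scale with their standard error (SE). A level compares arrays for 1 probe and does not rank genes. Well above background were 58.6% to 66.2% of an array's spots, and no spot was saturated. All arrays lay on 1 slide with knockout arrays in 1 column and wild-type arrays in the other, so the effects of column and genotype cannot be told apart. Mirg, a noncoding RNA of the imprinted domain, stood at -0.91 to -0.20 in knockout arrays and at 2.11 to 2.24 in wild-type arrays, and whether its probe lies inside the deletion is not given in the sources used here. The hepatocyte markers Alb, Apoa1, Ttr, Serpina1a, Fgb and Tat were above background on all arrays, and their summed linear signal was 3362 to 3455 times the 75th percentile in knockout and 3163 to 3762 times in wild-type livers. Of these markers Tat, a tyrosine aminotransferase that is switched on in the liver around birth, stood at 4.88, 5.39, 4.63 and 4.84 in knockout 1 to 4, against 6.13, 6.23, 5.80 and 5.93 in wild-type 1 to 4. Its groups did not overlap (difference -1.09, limma adjusted p = 0.0592). The study names 4 biological replicates a genotype, but in both groups replicate 4 lay close to a weighted mixture of the remaining arrays (0.352 of knockout 2 and 0.648 of knockout 3, and 0.430 of wild-type 2, 0.500 of wild-type 3 and 0.0697 of wild-type 1). For the 10 genes, the levels of replicate 4 differed from those sums by -0.13 to 0.12. Values without both replicate 4 arrays (6 arrays) are therefore given beside those from 8 for Aqp3, Aqp9, Lipc, Fbp2 and G0s2. The plot of the differences of the 10 genes shows both. For the remaining named genes, differences and separations of groups rest on 8 arrays unless left-out arrays are named. Replicate 4 counts there as a separate liver, which it may not be. Markers of sex also differed between arrays. Xist, transcribed from the inactive X of females, was above background in knockout 1, 2 and 4 and in no wild-type array. The Y-linked Ddx3y was above background in knockout 3 and 4 and in wild-type 1, 2 and 4. Knockout 4 thus carried both signals and wild-type 3 neither, so these genes do not give 1 sex for each array. Knockout 1 and 2 carried Xist alone, and knockout 3 and wild-type 1, 2 and 4 carried Ddx3y alone. The signals of sex were thus unbalanced between the genotypes, with Xist confined to knockout arrays. The effects of sex and genotype cannot be fully told apart. In knockout 4 Xist stood at -0.14 and Ddx3y at 1.81, and the mixture, fitted without sex-chromosome genes, gave 0.02 and 1.68. In wild-type 4 Ddx3y stood at 1.39, against 1.21 from the mixture.

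The sequences shown are the upstream regions of Aqp3 and Aqp9, the 2 genes with the most marked differences, and probes with at least 2 open forward reading frames. That rule does not tell coding from noncoding probes. RefSeq (GRCm38.p6) places the 250 bases before the listed start of Aqp3 at chr4:41098184-41098433 on the minus strand, and those before the more downstream of the 2 listed starts of Aqp9 at chr9:71162634-71162883, also on the minus strand. Capitals mark motifs: a TATA box (TATAAA) and a GC box (GGGCGG, here on the opposite strand) in Aqp3, and the core of the insulin response element (TGTTTTC) in Aqp9.
Aqp3: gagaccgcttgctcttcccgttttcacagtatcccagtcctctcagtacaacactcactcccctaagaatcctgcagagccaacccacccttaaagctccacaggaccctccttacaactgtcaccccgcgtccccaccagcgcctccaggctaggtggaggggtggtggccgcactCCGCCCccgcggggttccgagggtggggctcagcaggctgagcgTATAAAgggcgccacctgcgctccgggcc
Aqp9: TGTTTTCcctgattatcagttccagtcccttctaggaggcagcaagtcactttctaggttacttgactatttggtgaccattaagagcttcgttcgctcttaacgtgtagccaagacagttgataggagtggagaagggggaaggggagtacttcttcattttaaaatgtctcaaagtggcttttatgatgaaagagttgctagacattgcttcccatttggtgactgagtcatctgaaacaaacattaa

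In Aqp3 the TATA box lies at -29 to -24 and the GC box at -73 to -68 from the start, and the window has a GC content of 64.0% with 14 CpG. In Aqp9 the insulin response element core lies at -250 to -244, at the upstream edge of the window, whose GC content is 41.6% with 3 CpG. The other listed start of Aqp9 has none of the motifs searched in its window. Insulin is known to repress mouse Aqp9 through a negative insulin response element, which is why that motif was searched. Whether the match shown is that element was not tested. Letter patterns were searched on both strands in the 8 members with an entry, and of all 32851 promoter windows 12.4% hold TATAAA, 32.7% GGGCGG and 6.33% TGTTTTC. The GC box was also found in Aqp1, in 1 of 2 windows of Gpd2 and at 3 places in Gyk, while the PPAR response element (AGGTCA repeated after 1 base, 0.033% of all windows), a FOXO site (GTAAACA, 3.17%), the cyclic AMP response element (TGACGTCA, 1.55%) and the glucocorticoid response element (AGAACA and TGTTCT with 3 bases between, 0.009%) were in none of the members' windows. These matches describe letters only.

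The probes of Aqp9, Gpd2 and Gyk, and the dimmer of the 2 probes of Aqp8, are shown as probes with at least 2 open forward reading frames. The second Aqp4 probe also has 2, and its sequence is not shown. They are 60 bases long and are given 5′ to 3′, with mm9 positions as the array files give them. The Gpd2 probe spans an intron.
Aqp9, chr9:70978252-70978311, minus strand: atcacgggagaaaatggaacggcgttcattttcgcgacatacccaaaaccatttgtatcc
Gpd2, chr2:57216509-57216674, plus strand: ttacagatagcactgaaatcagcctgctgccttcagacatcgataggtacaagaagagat
Gyk, chrX:82956390-82956449, minus strand: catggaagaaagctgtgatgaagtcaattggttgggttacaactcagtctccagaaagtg
Aqp8, chr7:130606210-130606269, plus strand: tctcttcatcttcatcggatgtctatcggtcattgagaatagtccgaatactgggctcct

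Among the aquaglyceroporins, Aqp3 was higher in every knockout liver and Aqp9 lower in every knockout liver, while Aqp7 overlapped between the groups. Aqp3, which passes water and glycerol across the basolateral membrane of kidney collecting duct and epidermal cells, had levels of 1.33, 1.43, 1.73 and 1.65 in knockout 1 to 4, against 0.43, 0.65, 0.76 and 0.67 in wild-type 1 to 4. The lowest knockout array stood above the highest wild-type array. The means were 1.54 ± 0.19 in knockout and 0.63 ± 0.14 in wild-type livers (SD, n = 4 arrays each). The difference of 0.91 (SE 0.11, 95% interval 0.65 to 1.17, 1.88-fold) passed limma's test over all genes, with an adjusted p of 0.0281, and ranked 27 by p among the 23526 genes. Aqp3 was the only 1 of the 10 genes called. Over all genes 0.217% were called, 0.0383% as higher and 0.179% as lower, and nothing is read from the members' count against these shares because that contrast was used to choose them. In liver tissue a difference of this kind cannot tell a change in RNA per cell from a change in the number of cells that carry it.

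With the 6 arrays Aqp3 differed by 0.88 (SE 0.15), and its adjusted p by limma was 0.373, where 0.0255% of all genes were called. Leaving out 1 array at a time gave differences of 0.84 to 0.98 with adjusted p-values of 0.0335 to 0.129. The call was lost without knockout 3, knockout 4, wild-type 2, wild-type 3 or wild-type 4. With the Xist level as a covariate the difference was 1.16 and was not called (limma adjusted p = 0.0885). With the Ddx3y level as a covariate it was 0.93 and was called (limma adjusted p = 0.0326). Among arrays with Ddx3y signal the difference was 1.11 (2 knockout, 3 wild-type), and among arrays without it 0.62 (2 knockout, 1 wild-type). This split does not sort the livers by sex. Knockout 4 had Xist signal as well and lay close to a mixture of knockout 2 and 3, and wild-type 3 had neither signal. The same limits hold where the split is used for the genes below.

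Aqp9, the glycerol channel of the sinusoidal hepatocyte membrane and, in the mouse, of red cells, had levels of -1.98, -1.76, -2.50 and -2.32 in knockout 1 to 4, against -1.46, -1.65, -1.24 and -1.44 in wild-type 1 to 4. Every knockout array lay under every wild-type array, by 0.11 between the nearest pair (knockout 2 and wild-type 2). The means were -2.14 ± 0.33 in knockout and -1.45 ± 0.17 in wild-type livers (SD, n = 4 arrays each). The difference of -0.69 (SE 0.17, 95% interval -1.07 to -0.31, 1.62-fold) missed the threshold over all genes (limma adjusted p = 0.147). It was -0.63 with the 6 arrays (limma adjusted p = 0.625). Among arrays with Ddx3y signal it was -0.90, and among those without it -0.63. With the Ddx3y level as a covariate the difference was -0.79 and was called (limma adjusted p = 0.0324, range over the 24 alternatives 0.0324 to 0.625). That was the only 1 of the 24 alternatives that called Aqp9. With the Xist level as a covariate the difference was -1.13 and was not called (limma adjusted p = 0.145). Wild-type 3, the only wild-type array without Ddx3y signal, had the highest Aqp9 level.

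Aqp7, the channel through which adipocytes release glycerol, had levels of -3.98, -4.29, -3.99 and -4.07 in knockout 1 to 4, against -4.78, -4.37, -3.85 and -4.07 in wild-type 1 to 4. The knockout arrays fell inside the range of the wild-type arrays. The difference was 0.19 (SE 0.19, limma adjusted p = 0.678). Without 1 array it was 0.02 (wild-type 1 left out) to 0.32 (wild-type 3 left out). Wild-type 1 was the lowest array of Aqp7, as it was of Aqp3, Aqp4, Aqp8 and Aqp11.

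**Figure D1:**
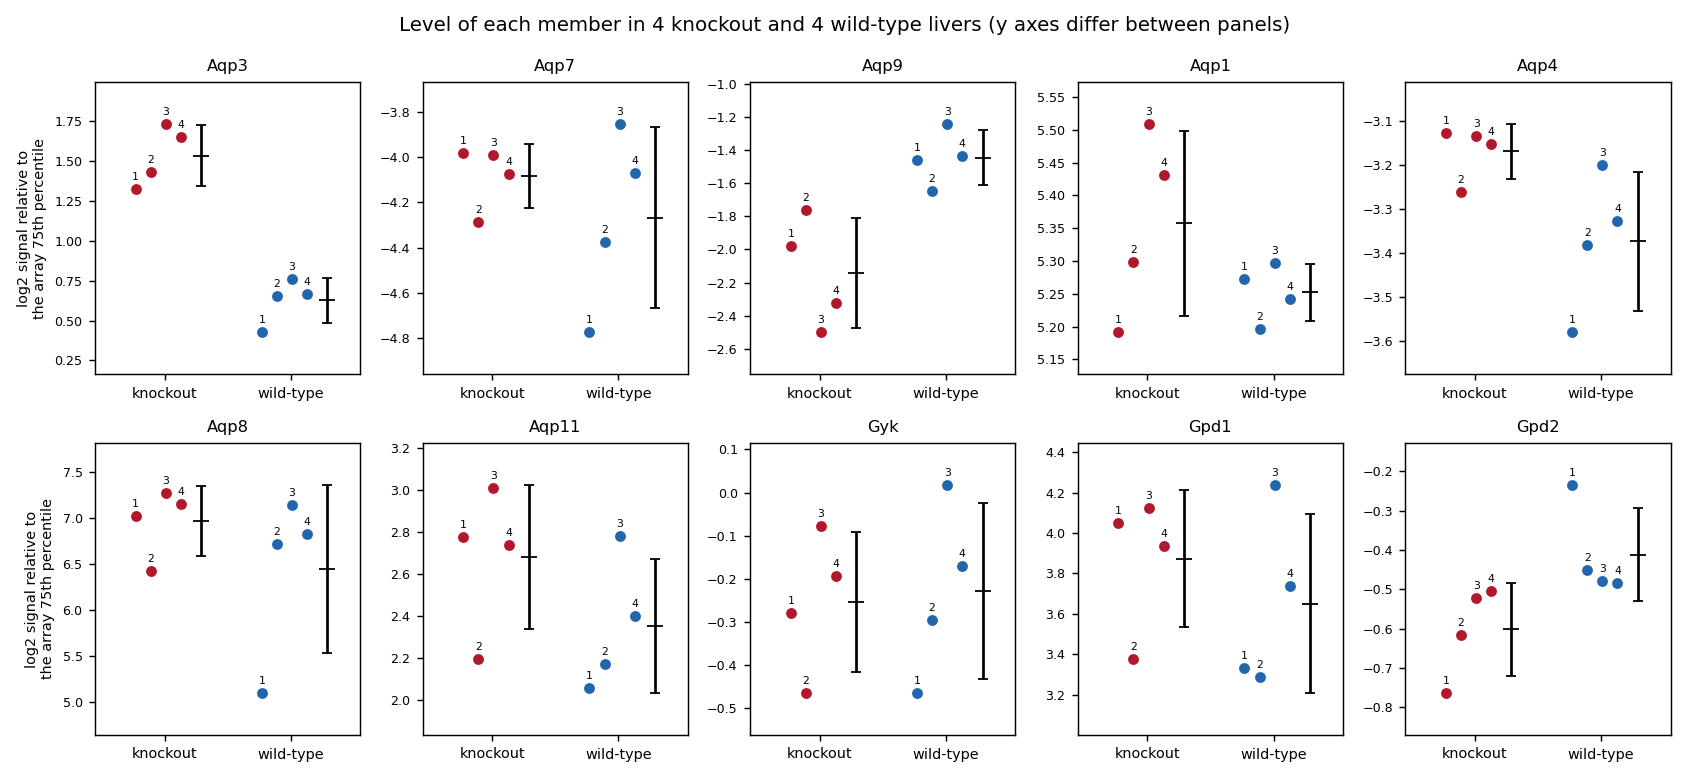
Log2 level of each of the 10 genes relative to the array's 75th percentile (y axes differ between panels) in 4 knockout arrays (red, left) and 4 wild-type arrays (blue, right), numbered by replicate, with mean ± SD as black bars. The groups are separate for Aqp3 (1.33 to 1.73 in knockout, 0.43 to 0.76 in wild-type), Aqp9 and Gpd2, and overlap for the other 7 genes.

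Marker genes of other cells that carry these channels were read on the same arrays, as summed linear signal relative to the 75th percentile. For Aqp3, the keratinocyte markers Krt5, Krt14, Trp63 and Dsg3 summed to 4.61 to 5.40 in knockout and 4.04 to 5.28 in wild-type livers, and Dsg3 was above background on 1 array. Nearly all of this sum was Trp63, with mean log2 levels of 2.25 in knockout and 2.19 in wild-type livers. Krt14 stood at -2.07 and -2.33 (difference 0.26) and Krt5 at -4.01 and -3.96 (difference -0.05), both with overlap of the groups. The erythroid markers (Epb42, Slc4a1, Alas2, Klf1 and Rhag, all 5 above background throughout) summed to 393 to 448 in knockout and 216 to 411 in wild-type livers. The adipocyte markers summed to 23.3 to 27.4 in knockout and 22.0 to 27.1 in wild-type livers, with the defining Adipoq and Lep above background on no array. Nearly all of that sum was Fabp4, with mean log2 levels of 4.64 in knockout and 4.58 in wild-type livers. Macrophage markers summed to 144 to 171 in knockout and 135 to 195 in wild-type livers, and granulocyte markers to 1142 to 1232 in knockout and 1013 to 1251 in wild-type livers. The summed ranges of these lists overlapped between the groups, and none of their tested members was called. Single members differed more. Epb42 was separated upward (difference 0.48, limma adjusted p = 0.213) and the macrophage marker Clec4f downward (-0.45, limma adjusted p = 0.204). All 5 erythroid markers had higher means in knockout livers, and 5 of 6 macrophage markers lower means. The sum of 6 skeletal muscle markers did not overlap, at 1.30 to 1.56 in knockout and 2.03 to 4.26 in wild-type livers. Of the 5 tested, Acta1, Tnnc2, Tnni2 and Myl1 were separated downward, Mylpf overlapped with a difference of 0.16, and Myl1, a fast-muscle myosin light chain, was called as lower (difference -3.27, limma adjusted p = 0.0281). The part of muscle RNA in the results here was not tested.

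None of the water channels passed the test. Aqp1, the channel of endothelial cells, red cells and bile duct cells, had levels of 5.19, 5.30, 5.51 and 5.43 in knockout 1 to 4, against 5.27, 5.20, 5.30 and 5.24 in wild-type 1 to 4. Knockout 1 was the lowest of the 8 arrays and knockout 3 the highest, so the groups overlapped. The difference was 0.11 (SE 0.08, limma adjusted p = 0.595), and 0.06 without knockout 3 and 0.16 without knockout 1. The endothelial marker sum was 36.9 to 41.0 in knockout and 35.6 to 48.3 in wild-type livers, and the cholangiocyte sum 5.96 to 7.07 in knockout and 6.52 to 7.62 in wild-type livers. Of their members, the endothelial Pecam1 (difference -0.20, limma adjusted p = 0.239) and the cholangiocyte Epcam (-0.31, limma adjusted p = 0.369) were separated downward, and the others overlapped.

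Aqp4, best known from astrocyte end-feet and fast muscle fibres, had levels of -3.13, -3.26, -3.13 and -3.15 in knockout 1 to 4, against -3.58, -3.38, -3.20 and -3.33 in wild-type 1 to 4. Only wild-type 3 reached into the knockout range. The difference was 0.20 (SE 0.09, limma adjusted p = 0.381), and 0.14 without wild-type 1, and the second Aqp4 probe differed by 0.32.

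Aqp8, the water channel of the hepatocyte canalicular membrane and of intracellular vesicles, had levels of 7.02, 6.42, 7.27 and 7.14 in knockout 1 to 4, against 5.09, 6.71, 7.14 and 6.83 in wild-type 1 to 4. Its second probe read 3.64, 3.12, 3.98 and 3.81 in knockout 1 to 4, against 1.50, 3.32, 3.71 and 3.49 in wild-type 1 to 4. On both probes wild-type 1 stood far under the other 7 arrays. The highest wild-type signal was 4.12 and 4.63 times the lowest on the 2 probes, against 1.81 times among knockout arrays on each. The difference was 0.52 (SE 0.42, limma adjusted p = 0.602), with 0.63 on the second probe, and 0.07 without wild-type 1. The same array had the lowest erythroid marker sum (216, against 380.2 to 411 in the other wild-type arrays), and no cause was tested.

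**Figure D2:**
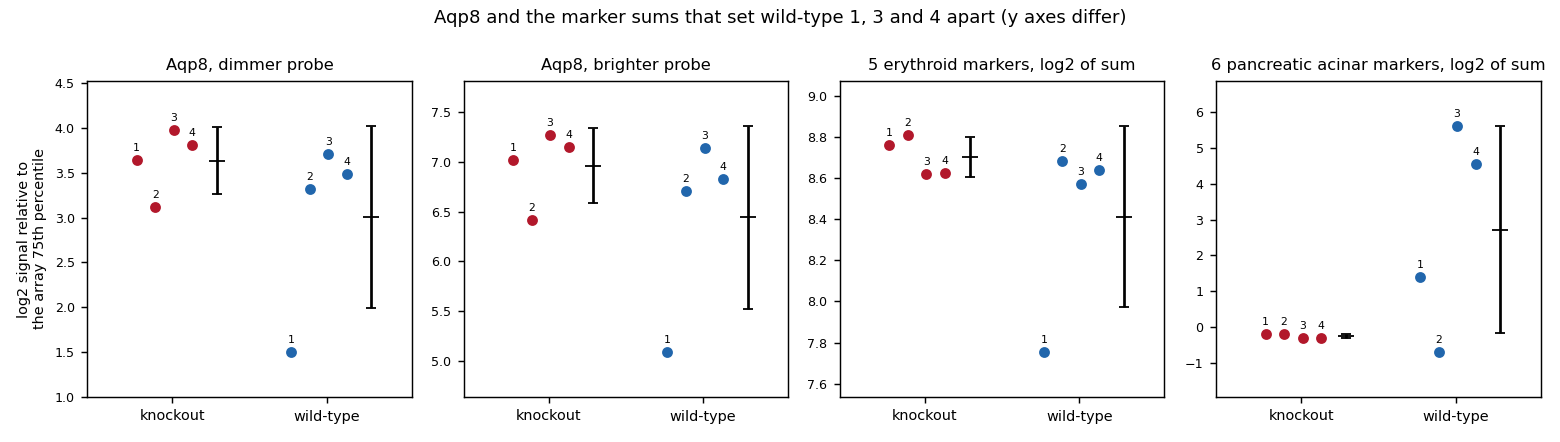
Log2 level of both Aqp8 probes and log2 of the summed linear signal of 5 erythroid and 6 pancreatic acinar markers, in 4 knockout arrays (red, left) and 4 wild-type arrays (blue, right), numbered by replicate, with mean ± SD as black bars. Wild-type 1 is lowest for Aqp8 and for the erythroid markers, and wild-type 3 and 4 are highest for the pancreatic markers.

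Aqp11, an aquaporin of the endoplasmic reticulum whose loss in mice leaves vacuoles in hepatocytes around the portal vein, had levels of 2.78, 2.20, 3.01 and 2.74 in knockout 1 to 4, against 2.06, 2.17, 2.78 and 2.40 in wild-type 1 to 4. Knockout 2 lay among the wild-type arrays and wild-type 3 among the knockout arrays. The difference was 0.33 (SE 0.21, limma adjusted p = 0.508), 0.39 on its second probe, and between 0.22 (without knockout 3) and 0.49 (without knockout 2) when 1 array was left out.

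The enzymes after uptake had differences of -0.19 to 0.22, and none passed the test. Gyk, which makes glycerol 3-phosphate and lies on the X chromosome, had levels of -0.28, -0.46, -0.08 and -0.19 in knockout 1 to 4, against -0.46, -0.30, 0.02 and -0.17 in wild-type 1 to 4. The groups overlapped over almost their whole range. The difference was -0.03 (SE 0.12, 95% interval -0.31 to 0.26, limma adjusted p = 0.941). Its sign changed with the arrays used, from 0.18 among those with Ddx3y signal to -0.39 among those without.

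Gpd1, the cytosolic dehydrogenase, had levels of 4.05, 3.38, 4.13 and 3.94 in knockout 1 to 4, against 3.33, 3.29, 4.24 and 3.74 in wild-type 1 to 4. Knockout 2 was close to the low wild-type arrays 1 and 2, and wild-type 3 was the highest of all. The difference was 0.22 (SE 0.24, limma adjusted p = 0.698). Without 1 array it was 0.10 (wild-type 2 left out) to 0.42 (wild-type 3 left out). Among arrays with Ddx3y signal it was 0.58, and among those without it -0.52.

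Gpd2, the mitochondrial dehydrogenase that passes electrons to the respiratory chain, had levels of -0.76, -0.62, -0.52 and -0.51 in knockout 1 to 4, against -0.23, -0.45, -0.48 and -0.48 in wild-type 1 to 4. All knockout arrays were below all wild-type arrays, but knockout 4 was only 0.02 under wild-type 4, and wild-type 1 stood apart at the top. The difference was -0.19 (SE 0.09, limma adjusted p = 0.405). Of the 10 genes, Aqp3 was separated upward and Aqp9 and Gpd2 downward. Over all genes 4.72% were separated with higher and 4.33% with lower levels in knockout, and nothing is read from the members' count, for the reason given above.

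Over the 10 genes, 7 had higher and 3 lower means in knockout livers, with a median difference of 0.19, beside 0.03 over all genes tested. Of all 23526 genes, 13293 had higher means, and nothing is read from the members' count, for the reason given above. Without wild-type 1 the 7 differences were 0.02 in Aqp7, 0.07 in Aqp8, 0.11 in Aqp1 and 0.12 in Gpd1. They were 0.14 in Aqp4, 0.23 in Aqp11 and 0.84 in Aqp3. With the 6 arrays none of the 10 was called by limma, and 1723 of all genes had an unadjusted p under 0.05 there.

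**Figure D3:**
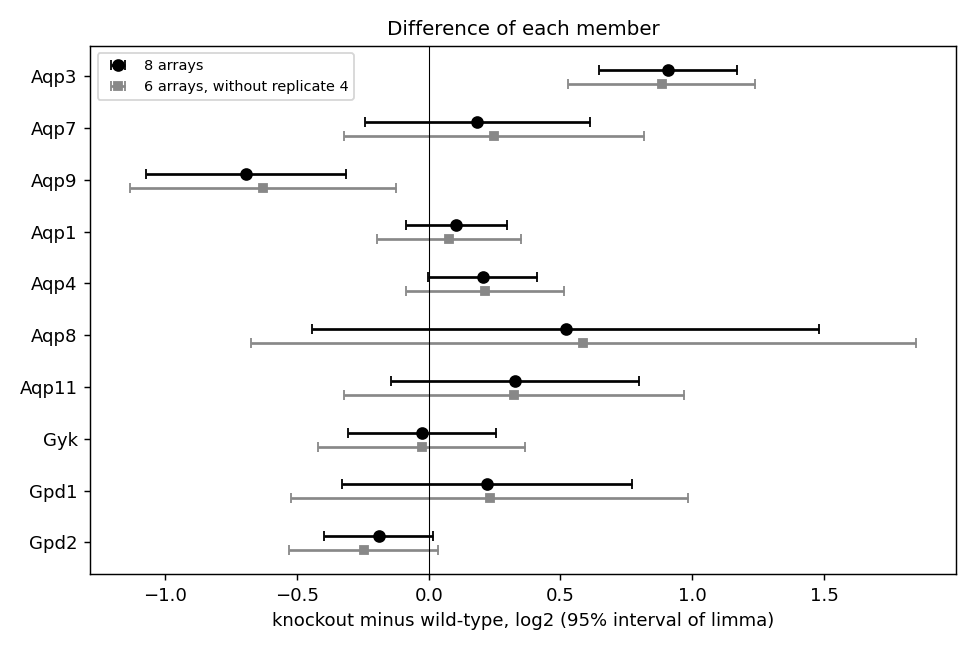
Knockout minus wild-type difference (log2) of each of the 10 genes with its 95% interval from limma, from 8 arrays (black circles) and from the 6 arrays without replicate 4 (grey squares). The intervals of Aqp3 (0.65 to 1.17) and Aqp9 (-1.07 to -0.31) lie away from 0 with 8 arrays, and those of the other 8 genes reach 0.

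Across the 8 arrays several of these genes varied together, which is given as a description because the arrays share genotype groups and replicate 4 may not be independent. Gpd1 and Aqp11 had a Pearson r of 0.95 (0.97 after the group means were taken off). Aqp7 and Aqp8 had 0.93 (0.92 within groups) and Aqp4 and Aqp8 0.90 (0.95 within groups). In these genes the variation ran along the arrays rather than the genotype, with wild-type 1 low in all 5 and knockout 2 lower than the other knockout arrays. Aqp3 and Aqp9 had an r of -0.89, and -0.53 within groups.

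The genes whose levels followed Aqp3 most closely over the 8 arrays were Sec63, a subunit of the protein translocation machinery of the endoplasmic reticulum, with an r of 0.98, and Anxa7, a membrane-binding annexin, also with 0.98. An unnamed transcript probed on chromosome 12, the chromosome of the deleted cluster, had an r of 0.98 and differed by 0.46. Its distance from the deletion was not tested. All r values of this paragraph include the difference between the genotype groups, and r within groups was not tested for these genes. The genes closest to Aqp9 were Mfap5, a microfibril protein, with an r of 0.99 and a difference of -1.87, and Cdk10 and Mfap2, both with an r of 0.99. Tpi1, which interconverts the triose phosphates made from glycerol, was the gene closest to Aqp4 (r = 0.996), and Rxra, the partner receptor of the PPARs, was among the 5 closest to Gpd1 (r = 0.97).

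Aqp3 and Aqp7 are neighbours on chromosome 4, with probes 59.5 kb apart (mm9). Of the 14 genes or unnamed transcripts tested within 250 kb of the Aqp3 probe, 0 were called by limma, and their differences ran from -0.44 to 0.37, against 0.91 for Aqp3. The nearest gene on the other side, Nol6, which works in ribosome assembly, differed by -0.05. Within the same distance of Gpd1 on chromosome 15 lie Aqp2 and Aqp5, at 142.8 and 130.7 kb.

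The remaining aquaporins were read as a separate list. Aqp2, the vasopressin-regulated channel of the collecting duct, had levels of -0.34, -0.40, -0.60 and -0.41 in knockout 1 to 4, against -1.36, -0.54, -0.36 and -0.38 in wild-type 1 to 4. The wild-type 1 array was again the lowest, and the other 7 overlapped. The difference was 0.22 (SE 0.21, limma adjusted p = 0.661). Aqp5, the channel of gland and airway epithelium, had levels of -4.66, -5.15, -4.81 and -4.94 in knockout 1 to 4, against -5.34, -5.33, -5.05 and -5.23 in wild-type 1 to 4. Only wild-type 3 reached into the knockout range, and the difference was 0.35 (SE 0.12, limma adjusted p = 0.265). The dimmer Aqp5 probe, above background on 1 knockout and 3 wild-type arrays, went the other way, with -0.41.

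Aqp12, an aquaporin of pancreatic acinar cells, had signals of 12.9 to 16.2 on the knockout arrays, where it was not well above background, and of 7.77, 9.61, 30.1 and 18.4 in wild-type 1 to 4. It was above background on wild-type 3 and wild-type 4 alone. The pancreatic acinar markers (Cpa1, Cel, Pnlip, Cela2a, Ctrb1 and Cpb1) summed to 0.81 to 0.87 in knockout arrays, against 2.63, 0.62, 49.1 and 23.6 in wild-type 1 to 4, so the same arrays were high. Pnlip was above background on none. Without wild-type 3 and 4 the difference was 1.00 in Aqp3, -0.59 in Aqp9 and 1.06 in Aqp8. Aqp6 was above background on no array and Mip on 1, so neither was tested.

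Other genes of glycerol handling were counted in 6 lists with 47 genes, of which 43 were tested. None was called by limma at an adjusted p under 0.05, and 7 (16.3%) had an unadjusted p under 0.05, beside 13.3% of all genes. Means were higher in knockout livers for 23 and lower for 20, with a median difference of 0.02, beside 0.03 over all genes.

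Of 8 genes that break down triglyceride and release glycerol, 4 had higher and 4 lower means. Lipc, the hepatic lipase of the sinusoids, had levels of 1.02, 0.87, 0.97 and 0.99 in knockout 1 to 4, against 1.44, 1.34, 1.40 and 1.39 in wild-type 1 to 4. The groups lay well apart, with a narrow spread within each. The difference was -0.43 (SE 0.06, limma adjusted p = 0.0512), just over the threshold. It was called as lower in 8 of 24 alternatives, and with the 6 arrays it was -0.44 (limma adjusted p = 0.497).

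Abhd5, the protein that activates adipose triglyceride lipase, had levels of 2.45, 2.44, 2.94 and 2.77 in knockout 1 to 4, against 1.66, 2.12, 2.42 and 2.20 in wild-type 1 to 4. The groups did not overlap, though knockout 2 and wild-type 3 were close, and the difference was 0.55 (SE 0.18, limma adjusted p = 0.246). Lipe, the hormone-sensitive lipase, had levels of -3.67, -3.58, -3.77 and -3.69 in knockout 1 to 4, against -3.33, -3.60, -3.20 and -3.25 in wild-type 1 to 4. Wild-type 2 lay in the knockout range, and the difference was -0.33 (SE 0.10, limma adjusted p = 0.219).

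In the acylation of glycerol 3-phosphate to triglyceride, 8 of 12 genes had higher and 4 lower means. Lpin3, a phosphatidate phosphatase, differed by -0.42 (SE 0.13, limma adjusted p = 0.236) with no overlap of the groups. Gpat2, a mitochondrial acyltransferase, differed by 0.20 and Dgat2, which makes the last ester bond of triglyceride, by 0.14, both with overlap.

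Among the relatives of glycerol kinase and the triose enzymes, Tpi1 had levels of 6.15, 5.88, 6.12 and 6.06 in knockout 1 to 4, against 5.44, 5.74, 6.03 and 5.83 in wild-type 1 to 4. Knockout 2 and wild-type 3 made the groups overlap, and the difference was 0.29 (SE 0.13, limma adjusted p = 0.371). Pgp, which can dephosphorylate glycerol 3-phosphate, differed by 0.13 and Gk5, a glycerol kinase relative, by -0.22. Gk2, a glycerol kinase of testis, was not tested.

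From triose phosphate to glucose, 3 of 5 genes had higher means. Fbp1, the fructose bisphosphatase of liver, differed by -0.09 (SE 0.07), Fbp2, that of muscle, by 0.57 (SE 0.43, above background on 4 arrays, 0.88 with the 6 arrays), and Gpi1, the hexose phosphate isomerase, by 0.13 (SE 0.08), all with overlap of the groups. Of 10 regulators of the aquaglyceroporin and glycerol kinase genes, 4 had higher and 6 lower means. Pparg, a receptor that drives Aqp7 and glycerol kinase in fat cells, had levels of 0.25, 0.37, 0.16 and 0.20 in knockout 1 to 4, against 0.76, 0.41, 0.42 and 0.39 in wild-type 1 to 4. The groups were separate, with wild-type 1 far above the other wild-type arrays, and the difference was -0.25 (SE 0.10, limma adjusted p = 0.349). Nr3c1, the glucocorticoid receptor, differed by 0.13 and Irs2, which relays the insulin signal, by 0.16, both with overlap.

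**Figure D4:**
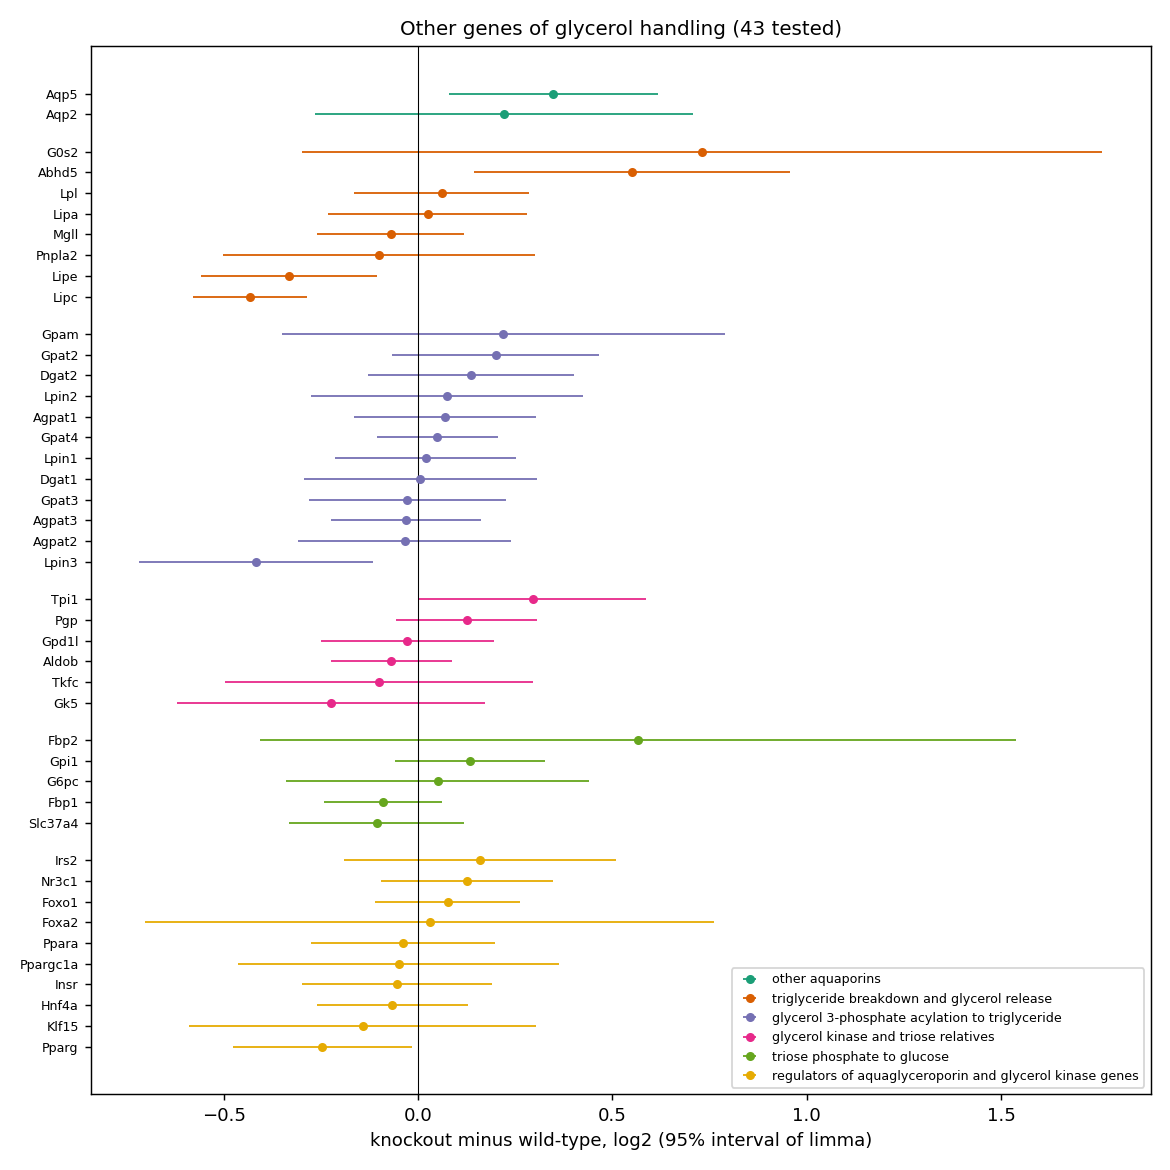
Knockout minus wild-type difference (log2) of the 43 tested genes of the 6 other lists with 95% intervals from limma, coloured by list and sorted within it. Lipc (-0.43) has the narrowest interval among the larger differences, and G0s2 (0.73) one of the widest.

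G0s2, an inhibitor of adipose triglyceride lipase, had the highest difference of the 43 and is named after its values were seen. Its levels were -0.03, 0.02, 2.00 and 1.61 in knockout 1 to 4, against 0.06, 0.33, 0.16 and 0.14 in wild-type 1 to 4. Knockout 3 and 4 were high and knockout 1 and 2 were at the level of the wild-type arrays. The difference was 0.73 (SE 0.45, limma adjusted p = 0.502). With the 6 arrays it was 0.49 (limma adjusted p = 0.835). Knockout 3 and 4 were also the arrays with the lowest Aqp9 and the highest Aqp3. Because knockout 4 lay close to a mixture with 0.648 of knockout 3, they may not be independent livers.

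**Figure D5:**
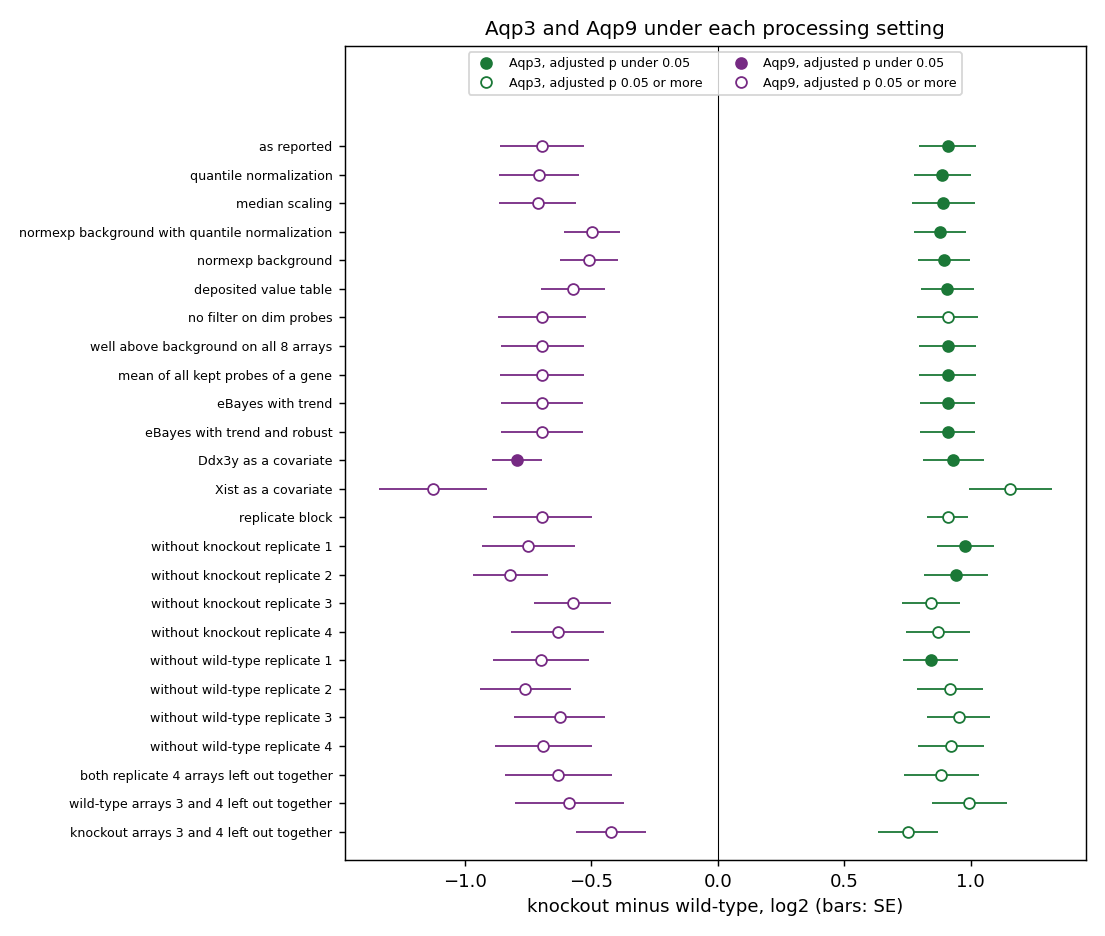
Knockout minus wild-type difference (log2, bars are SE) of Aqp3 (green) and Aqp9 (purple) as reported and under 24 other settings, filled where limma's adjusted p over all genes was under 0.05. Aqp3 stays between 0.75 and 1.16 and is called in 13 of the 24, and Aqp9 stays between -1.13 and -0.42 and is called in 1.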

How the data were processed

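Liver RNA of 4 knockout and 4 wild-type newborn mice was labelled with Cy3 from 200 ng of total RNA, per the labels' protocols. The authors deposited scanner files with linear spot intensity, which the submitters' processing notes trace to Agilent Feature Extraction 10.10, and a value table of log2 values for 27084 probes. The deposited log2 columns have medians of 8.84 to 8.86 and tracked each array's own median signal (r of 0.99995 or more). Its normalization method is not given in the sources used here.

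Processed signals were taken to log2 and centred on the 75th percentile of each array. Control and outlier-flagged spots were left out, as were 87 probes with every spot marked as an outlier on an array. Probes well above background on at least 4 arrays were kept, and the brightest kept probe stood for its gene. Symbols were updated through RefSeq accessions for 27222 probes and synonyms for 565, the 13 member probes kept the file's names, and 27881 kept the file's name. Probe positions are on mm9, per the file headers. Promoter windows are RefSeq's (GRCm38.p6), and 8 of 10 members matched.

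Groups were compared with limma 3.58.1 in R 4.3.3 (lmFit and eBayes, 8 arrays, no covariates, two-sided, Benjamini-Hochberg over 23526 genes, threshold 0.05), after a test on simulated data. The number of arrays limits precision, and the median 95% interval was 0.26 wide on either side. Named were all 10 members and, in each list, up to 3 genes with the smallest p. Likeness was Pearson r over 8 arrays, listing the 5 highest. The neighbour window was chosen after the values were seen, as was the split by Ddx3y. A further gene of the erythroid list is not reported here. The members and lists were chosen with earlier results of these data known. Same-numbered replicates did not deviate together (r of -0.10, -0.00, 0.05 and 0.05), so the numbers were not taken as pairs. Alternatives were the scaling, background correction, deposited values, dim-probe filter, choice of probe, variance trend, a Ddx3y or Xist covariate, a replicate block and left-out arrays.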

Additional observations from a re-analysis of the deposited data

Results flagged for a closer look

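In groups of 4 arrays, a sample was singled out by its gap to the nearest other array. The gap, as a share of the group's range, had to exceed Dixon's 95% critical value. With 4 independent values, chance passes it in about 1 group in 20. Replicate 4 lay close to a mixture of other arrays of its group, so that rate may not hold here. Of 86 groups checked, 9 passed. Wild-type 1 was singled out in 6 of them. It stood at -0.23 for Gpd2 (others -0.48 to -0.45), at 0.76 for Pparg (others 0.39 to 0.42) and at 4.31 for Irs2 (others 4.93 or higher). Its marker sums were 216 for erythroid (others 380.2 to 411), 195 for macrophage (others 135 to 144) and 1013 for granulocyte genes (others 1233 to 1251). Aqp8 of wild-type 1 came close to the criterion without passing it.

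Knockout 2 stood at -1.06 for Gpat2 (others -0.69 to -0.63), and knockout 1 had a skeletal muscle sum of 1.56 (others 1.30 to 1.33). Wild-type 3 stood at -7.67 for Ddx3y (others 1.39 to 2.21).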

How the results depend on the processing

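The 24 alternatives kept the sign of Aqp3 (0.75 to 1.16, adjusted p 0.00608 to 0.373), Aqp9 (-1.13 to -0.42, adjusted p 0.0324 to 0.625), Aqp4, Aqp8, Aqp11 and Gpd1, and those 23 that gave a value kept it for Aqp7 and Gpd2. Aqp1 kept its sign in 23 and Gyk in 20. Genes called lower and higher over all genes, 42 and 9 as reported, were 66 and 14 with quantile normalization, 124 and 25 with normexp and quantile, 118 and 14 with normexp, and 120 and 21 with the deposited table. They were 119 and 30 with a variance trend, with or without robust fitting, 19 and 0 without a filter, and 14 higher with median scaling. With Ddx3y as a covariate 78 were lower, and with Xist 15 and 3. Without both replicate 4 arrays they were 6 and 0, without wild-type 3 and 4 11 and 2, and without knockout 3 and 4 9 and 3. With any single array left out there were 14 to 66 lower, 0 to 24 higher, and 0 to 1 member called higher. The cause was not tested.

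The member called higher, 1 as reported, was 0 without a filter (34700 genes tested), with Xist, without both replicate 4 arrays, without wild-type 3 and 4 or without knockout 3 and 4. With Ddx3y 1 member, Aqp9, was called lower. Of the other glycerol genes 1, Lipc, was called lower with quantile normalization, normexp with and without quantile, the deposited table, the filter on all 8 arrays, the mean of probes and both variance trends. With the replicate number as a block 17 genes were called lower, 2 higher and 0 members, with Aqp3 at an adjusted p of 0.0530, though the numbers did not pair the samples. Among arrays without Ddx3y signal Aqp8 differed by -0.42, Gpd1 by -0.52, Aqp11 by -0.30, Aqp7 by -0.28 and Aqp1 by -0.05. Arrays with it gave 1.00, 0.58, 0.67, 0.37 and 0.23 in the same order. This split was chosen after seeing the data and, as said for Aqp3, does not sort the livers by sex. Dim probes limit Aqp4, Aqp7, Aqp5, whose second probe had signals down to 8.04, and Fbp2.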
